A study of Mus musculus with 12 samples.

Results

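The voltage-gated sodium channel subunits described here are 7 genes of the 54446 in the count tables. They are the pore-forming alpha subunits Scn1a, Scn2a, Scn3a and Scn8a and the auxiliary beta subunits Scn2b, Scn3b and Scn4b. They were chosen by name, as the rows of both count tables whose Ensembl identifier carries one of these symbols in the GENCODE M21 annotation of GRCm38, and each symbol matched 1 row per table. The libraries are poly(A) RNA of hippocampus and of cerebellum from 3 Syt14-/- mice, labelled SYT14 knockout (KO below), and from 3 Syt14+/+ mice, labelled WT. Each animal gave both tissues, so that hippocampus KO, hippocampus WT, cerebellum KO and cerebellum WT hold 3 libraries each. Replicates are separate animals. No treatment or further allele is named in the labels, and the sources used here do not give age, sex, strain or the design of the knockout allele. The study set out to relate Syt14, a gene named as a synaptotagmin, one of a family that acts in membrane traffic, to mood and to movement.

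A voltage-gated sodium channel opens when the membrane is depolarised, lets sodium ions into the neuron and so carries the rising phase of the action potential. The alpha subunit alone forms the pore, the voltage sensors and the inactivation gate, a short cytoplasmic loop that plugs the open pore. The beta subunits are small proteins with a single membrane span and an outer immunoglobulin-like domain, and they change the gating and surface level of the alpha subunit and act in cell adhesion. In the brain, Scn1a (Nav1.1) is known above all from inhibitory neurons, Scn2a (Nav1.2) from the axons of excitatory neurons, Scn8a (Nav1.6) from the mature axon initial segment and nodes, and Scn3a (Nav1.3) from the developing brain. Beta2 (Scn2b) and beta4 (Scn4b) are joined to the alpha subunit by a disulfide bond, and beta3 (Scn3b) is held without one. In Purkinje cells of the cerebellum, the tail of beta4 is known as a candidate blocker that lets a resurgent sodium current flow on repolarisation.

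Coding stretches that carry these roles are shown for 1 alpha and 1 beta subunit, because they hold the gate and the blocking tail named above. The stretch of Scn8a is the 23 codons around the inactivation gate, 5′ to 3′ on the coding strand, with the codons of its isoleucine, phenylalanine and methionine in capitals. The stretch of Scn4b holds the part of the beta4 tail known for the resurgent current, with the codons of the blocking peptide in capitals and flanking codons in small letters. Both are read from GENCODE M21 transcripts on GRCm38, and each spans 2 coding exons, so that the genomic interval given with it also holds an intron.
Scn8a, chr15:101032305-101033528, plus strand: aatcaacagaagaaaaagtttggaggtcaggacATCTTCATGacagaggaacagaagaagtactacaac
Scn4b, chr9:45149340-45150423, plus strand: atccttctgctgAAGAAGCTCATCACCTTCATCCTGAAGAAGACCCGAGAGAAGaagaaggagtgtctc
Scn8a was the most distant of the alpha subunits over the whole coding sequences, where Scn1a, Scn2a and Scn3a were 81.4 to 83.3% identical to each other and 73.0 to 73.8% identical to Scn8a. The beta subunits were far less alike, with 40.6% identity for Scn2b and Scn3b, 45.0% for Scn3b and Scn4b and 49.4% for Scn2b and Scn4b.

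Chromosomes 2 and 9 hold most of the family. Scn3a (chr2:65457118-65567627), Scn2a (chr2:65620771-65767447) and Scn1a (chr2:66270778-66440840) lie in this order on chromosome 2, with 53.1 kb between Scn3a and Scn2a and 503 kb between Scn2a and Scn1a. Scn2b (chr9:45117782-45130070) and Scn4b (chr9:45138395-45154152) are neighbours on chromosome 9, 8.32 kb apart, and Scn3b (chr9:40269217-40291618) lies 4.83 Mb from Scn2b. Scn8a stands alone on chromosome 15 (chr15:100869858-101045938). No annotated gene shares exon bases with a member. Of all windows of 50 bases in their transcripts, 3.63% in Scn1a, 5.06% in Scn2a, 5.13% in Scn3a and 0.0374% in Scn8a also occur in another of the 7 genes, against none in the beta subunits, so that few reads of this length could be split between paralogs. The sources used here do not say how the authors counted reads with several matches.

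The libraries held 24355572 to 34971359 counts, and the 7 genes together took 0.163 to 0.177% of them. All 7 were counted in all 12 libraries, and all passed the filter on low counts in every comparison. The targeted gene itself was read at 28.0 to 30.6 CPM in the hippocampus KO libraries and 38.2 to 38.9 in the WT ones. Its log2 fold change there was -0.39 ± 0.062 SE (edgeR unadjusted p = 3.88e-05, adjusted p = 0.686). In the cerebellum it had 30.3 to 30.7 CPM in the KO libraries and 33.4 to 38.2 in the WT ones (-0.20 ± 0.063, edgeR unadjusted p = 0.00897, adjusted p = 0.644). Each KO library lay below each WT library of its tissue, but most Syt14 reads remained. CPM, here and below, is the count of a gene scaled to the size of its library, with TMM factors taken over the 12 libraries. Markers of hippocampal principal neurons summed to 2184 to 2415 CPM in the hippocampus libraries and 446 to 505 in the cerebellum ones. Those of granule cells summed to 206 to 249.4 CPM in the hippocampus and 4350 to 5136 in the cerebellum, and those of Purkinje cells to 669 to 751 and 5995 to 7776, so each library carried the markers of its labelled tissue. In bulk tissue, fewer cells of a type and less RNA per cell cannot be told apart.

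The pore-forming subunits differed mainly between the tissues. Scn8a was the alpha subunit with the most reads in the hippocampus, at 498, 488 and 489 CPM in the KO libraries and 491, 523 and 498 CPM in the WT libraries. In the cerebellum it had 350, 326 and 371 CPM in the KO and 371, 331 and 379 CPM in the WT libraries. Each hippocampus library lay above each cerebellum library, and the genotypes overlapped in both tissues.

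Scn2a, known from the axons of excitatory neurons, was at nearly one level throughout. It had 407, 413 and 419 CPM in hippocampus KO and 407, 439 and 420 in hippocampus WT libraries, and 413, 395 and 450 CPM in cerebellum KO and 483, 405 and 478 in cerebellum WT libraries. The ranges of the 4 groups overlapped each other, and the cerebellum libraries were the more spread out.

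Scn1a, known above all from inhibitory neurons, was lower in the hippocampus. Its CPM was 138, 171 and 170 in hippocampus KO and 164, 155 and 174 in hippocampus WT libraries, and 269, 262 and 266 in cerebellum KO and 258, 252 and 287 in cerebellum WT libraries. The lowest value was that of KO library 1 of the hippocampus, and the tissues did not overlap.

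Scn3a, known from the developing brain, was the alpha subunit with the fewest reads in both tissues. It had 79.4, 71.1 and 66.01 CPM in hippocampus KO and 75.0, 75.2 and 69.0 CPM in hippocampus WT libraries. In the cerebellum it was read at 8.10, 5.11 and 3.19 CPM in the KO and 4.24, 2.37 and 3.28 CPM in the WT libraries, from 88 to 220 counts a library. KO libraries 1 and 2 of the cerebellum were above all WT libraries there, and KO library 3 lay within the WT range.

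Among the beta subunits, Scn2b was high everywhere. It had 302, 302 and 310 CPM in hippocampus KO and 331, 308 and 332 CPM in hippocampus WT libraries, and 434, 403 and 440 CPM in cerebellum KO and 439, 410 and 392 CPM in cerebellum WT libraries. In the hippocampus the highest KO library lay just above the lowest WT library, so the genotypes overlapped.

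Scn3b was the most tissue-bound member. It had 340, 315 and 285 CPM in hippocampus KO and 308, 313 and 276.3 CPM in hippocampus WT libraries. In the cerebellum it had 12.4, 9.82 and 3.92 CPM in the KO and 6.10, 4.52 and 4.56 CPM in the WT libraries. As with Scn3a, KO libraries 1 and 2 of the cerebellum were above all WT libraries, and here KO library 3 was below all of them.

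Scn4b, the beta subunit linked to the resurgent current, had the opposite pattern. It was read at 25.1, 30.6 and 42.2 CPM in hippocampus KO and 30.2, 27.8 and 39.8 CPM in hippocampus WT libraries, and at 146, 134 and 151 CPM in cerebellum KO and 105, 128 and 139 CPM in cerebellum WT libraries. In the hippocampus it was the member with the widest relative spread within a genotype, and replicate 3 was highest in both genotypes.

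**Figure D1:**
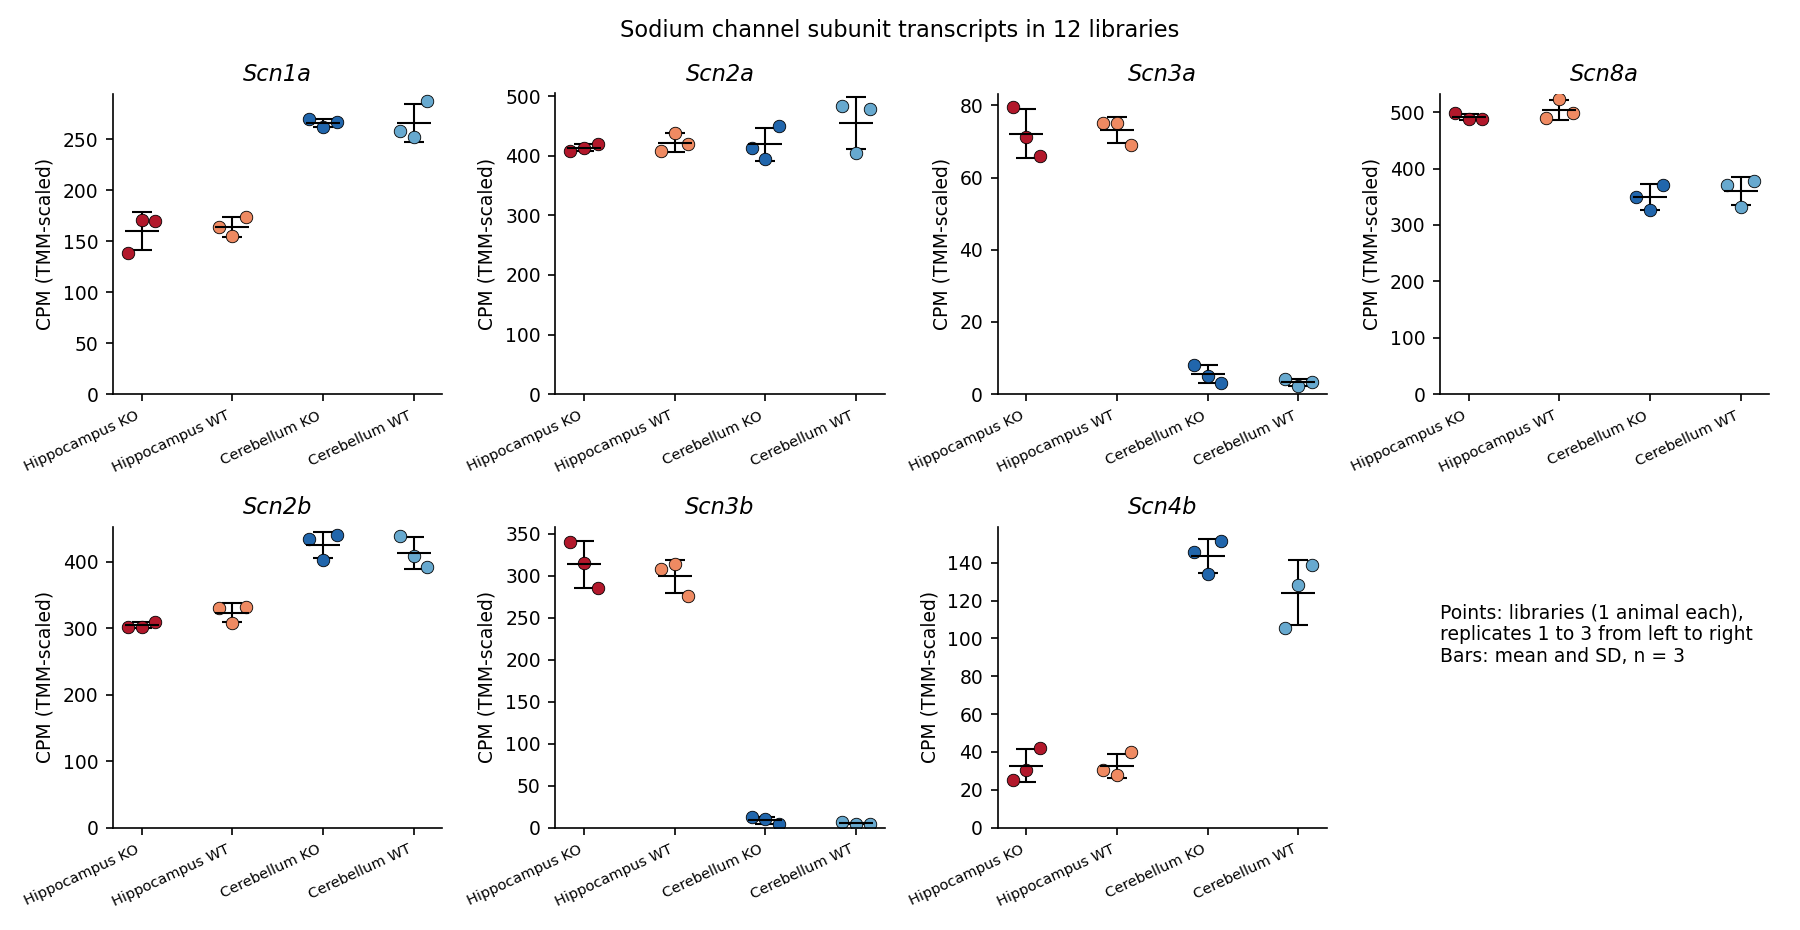
Level of each subunit (CPM, TMM-scaled, linear axes from 0) in the 12 libraries, with the groups along the horizontal axis. Points are single animals, and bars give the mean and SD of 3; Scn3a and Scn3b lie between 66.01 and 340 CPM in the hippocampus and between 2.37 and 12.4 CPM in the cerebellum, and Scn4b is lower in the hippocampus.

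The ranks by reads given above do not allow for the length of a gene. Levels were therefore also compared between genes per length, as CPM per kb of joined annotated exons. In the hippocampus the order was Scn2b, with 65.4 ± 0.96 in KO and 69.5 ± 3.0 in WT libraries (SD, n = 3 each), then Scn3b (57.4 ± 5.1 and 54.8 ± 3.7), Scn2a (32.4 ± 0.47 and 33.1 ± 1.2), Scn8a (31.2 ± 0.34 and 32.0 ± 1.1), Scn1a (14.3 ± 1.7 and 14.7 ± 0.87), Scn4b (6.55 ± 1.8 and 6.54 ± 1.3) and Scn3a (5.79 ± 0.54 and 5.87 ± 0.29). Neighbours in this order did not overlap, except Scn4b and Scn3a in both genotypes and Scn2a and Scn8a in WT. In the cerebellum Scn2b came first again, with 91.5 ± 4.2 in KO and 88.9 ± 5.1 in WT libraries, and Scn2a second (32.9 ± 2.2 and 35.8 ± 3.4). Scn4b (28.8 ± 1.8 and 24.9 ± 3.4), Scn1a (23.9 ± 0.34 and 23.8 ± 1.7) and Scn8a (22.1 ± 1.4 and 22.9 ± 1.6) formed a middle group, in which Scn4b stood apart from Scn1a in KO and overlapped it in WT. Scn3b (1.60 ± 0.80 and 0.927 ± 0.16) and Scn3a (0.439 ± 0.20 and 0.265 ± 0.075) came last. The order depends on the length used. Per kb of the longest coding transcript, Scn3b came before Scn2b in the hippocampus, at 75.5 and 65.4 in KO and 72.1 and 69.5 in WT libraries. Their ranges were apart in KO and overlapped in WT libraries. Per kb of coding sequence, Scn4b came before every alpha subunit in the cerebellum, with 210.0 against 69.7 for Scn2a in KO and 182 against 75.6 in WT libraries. On that scale Scn8a came before Scn2a in the hippocampus, with 82.4 against 68.6 in KO and 84.5 against 70.1 in WT libraries, and the ranges did not overlap.

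The alpha sum overlapped between the tissues, and the share of each of its 4 subunits did not. The 4 alpha subunits summed to 83.7 ± 1.2 CPM per kb in hippocampus KO, 85.7 ± 1.9 in hippocampus WT, 79.4 ± 3.7 in cerebellum KO and 82.7 ± 6.3 in cerebellum WT libraries. Scn2a took 38.7 ± 0.30% of that sum in KO and 38.7 ± 0.61% in WT hippocampus, and 41.5 ± 0.93% in KO and 43.2 ± 1.3% in WT cerebellum. Scn8a took 37.2 ± 0.95% in KO and 37.3 ± 0.54% in WT hippocampus, and 27.9 ± 0.51% in KO and 27.6 ± 0.18% in WT cerebellum. Scn1a took 17.1 ± 1.8% in KO and 17.2 ± 1.2% in WT hippocampus, and 30.1 ± 1.2% in KO and 28.9 ± 1.4% in WT cerebellum. Scn3a took 6.93 ± 0.75% in KO and 6.85 ± 0.37% in WT hippocampus, and 0.557 ± 0.26% in KO and 0.318 ± 0.076% in WT cerebellum.

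The beta sum was 129 ± 2.6 CPM per kb in hippocampus KO, 131 ± 2.4 in hippocampus WT, 122 ± 5.7 in cerebellum KO and 115 ± 1.8 in cerebellum WT libraries. In the hippocampus Scn2b and Scn3b made up most of it, with 50.6 ± 1.6% in KO and 53.1 ± 1.9% in WT for Scn2b and 44.3 ± 3.1% in KO and 41.9 ± 2.8% in WT for Scn3b, and Scn4b held 5.08 ± 1.5% in KO and 5.01 ± 1.0% in WT. In the cerebellum Scn2b held 75.0 ± 0.26% in KO and 77.4 ± 3.2% in WT, Scn4b 23.7 ± 0.47% in KO and 21.8 ± 3.3% in WT, and Scn3b 1.32 ± 0.66% in KO and 0.807 ± 0.13% in WT. Between the genotypes the shares of all 7 members overlapped in both tissues. The exact two-sided permutation test gave p from 0.2 to 1.0 over the 14 shares compared. Adjusted within each family, its p was at least 0.8 for the alpha and 0.6 for the beta shares. With 3 animals against 3 the unadjusted p cannot go below 0.1. Shares of a family are parts of the same sum, so these tests are not independent.

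**Figure D2:**
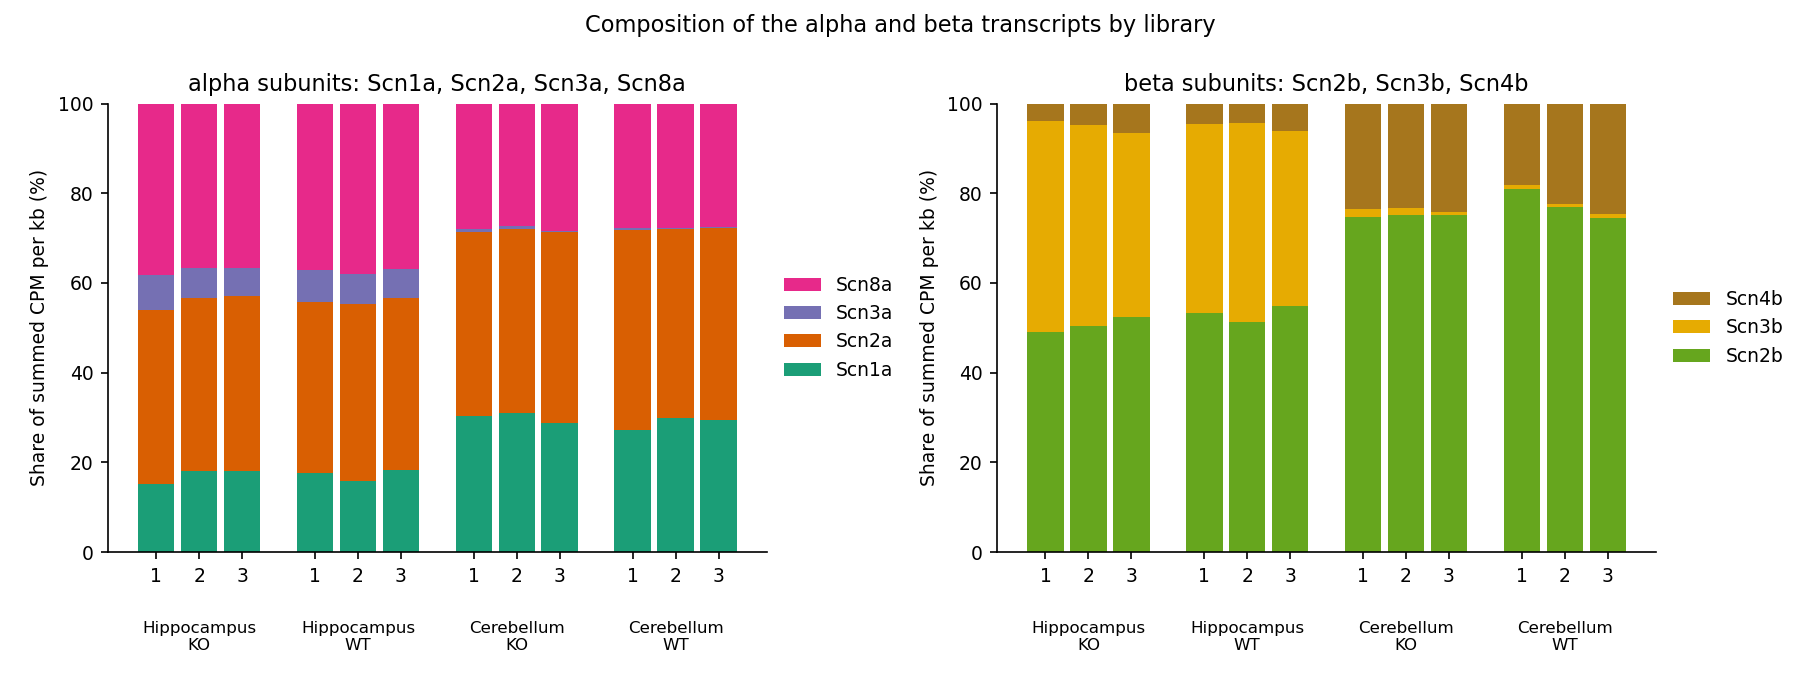
Share (%) of each alpha subunit in the summed CPM per kb of the 4 alpha subunits (left panel) and of each beta subunit in that of the 3 beta subunits (right panel), with 1 bar per library, numbered by replicate. Scn3b holds 38.9 to 47.1% of the beta sum in the hippocampus and 0.571 to 1.83% in the cerebellum, where Scn4b holds 18.1 to 24.7%.

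The comparison of hippocampus with cerebellum asks how the channel differs between the tissues, and was made in KO and in WT animals, which share no library. In each genotype 6 of the 7 members passed edgeR's quasi-likelihood test, 3 higher and 3 lower in the hippocampus. The tissues differ across the transcriptome: 64.1% of 18200 genes tested were called in KO animals and 66.1% of 18128 in WT animals, so a count of 6 of 7 is near what the whole table gives. By direction, 31.6% of genes were higher and 32.5% lower in the hippocampus of KO animals, and 33.1% and 33.0% in WT animals, and the tissues did not overlap for 70.3% of genes in KO and 70.7% in WT animals. A fitted difference over 16-fold was seen in 3.14% of genes in KO and 3.66% in WT animals, and Scn3b was among them in both genotypes and Scn3a in WT animals. In KO animals Scn3a was among the 10.6% of genes over 4-fold but not over 16-fold. All hippocampus columns share a mark in their names and all cerebellum columns another. Its meaning is not stated, and it cannot be told apart from the tissue.

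Scn3b was 36.0-fold higher in the hippocampus of KO animals (log2 fold change 5.17 ± 0.29 SE, adjusted p = 2.55e-07) and 60.1-fold higher in that of WT animals (5.91 ± 0.095, adjusted p = 3.18e-14). Scn3a was 13.3-fold higher in KO (3.73 ± 0.23, adjusted p = 5.8e-07) and 22.8-fold higher in WT animals (4.51 ± 0.13, adjusted p = 4.27e-12). For Scn3a in KO animals the 95% interval of the fold runs from 9.22 to 19.1. Both genes were higher in the hippocampus of 6 of 6 animals, by 4.77 to 6.18 on the log2 scale for Scn3b and 3.29 to 4.99 for Scn3a. Scn8a was the third member higher in the hippocampus, 1.40-fold in KO (0.49 ± 0.055, adjusted p = 3.78e-05) and 1.40-fold in WT animals (0.49 ± 0.056, adjusted p = 5.86e-06), again in 6 of 6 animals.

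Scn4b was the member with the largest difference in the other direction, 4.41-fold lower in the hippocampus of KO animals (-2.14 ± 0.15, adjusted p = 1.31e-06) and 3.81-fold lower in WT animals (-1.93 ± 0.12, adjusted p = 1.53e-08). Fitted differences over 4-fold in either direction were seen in 10.6% of genes in KO animals, Scn4b among them, and in 11.3% in WT animals, where Scn4b was just under that size. Scn1a was 1.67-fold lower in the hippocampus of KO (-0.74 ± 0.077, adjusted p = 2.23e-05) and 1.62-fold lower in WT animals (-0.69 ± 0.060, adjusted p = 3.72e-07). Scn2b was 1.40-fold lower in KO (-0.49 ± 0.049, adjusted p = 1.79e-05) and 1.28-fold lower in WT animals (-0.35 ± 0.053, adjusted p = 7.31e-05). All 3 were lower in the hippocampus of 6 of 6 animals. Scn2a did not pass the test in KO (-0.03, 95% interval -0.15 to 0.098, adjusted p = 0.694) or in WT animals (-0.11, -0.25 to 0.036, adjusted p = 0.172), and was higher in the hippocampus in 2 of 6 animals. Without WT library 2 of the cerebellum, Scn2a passed as lower in the WT hippocampus (-0.19, adjusted p = 0.00243). The 7 members were then all called, where 62.6% of 18500 genes tested were.

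**Figure D3:**
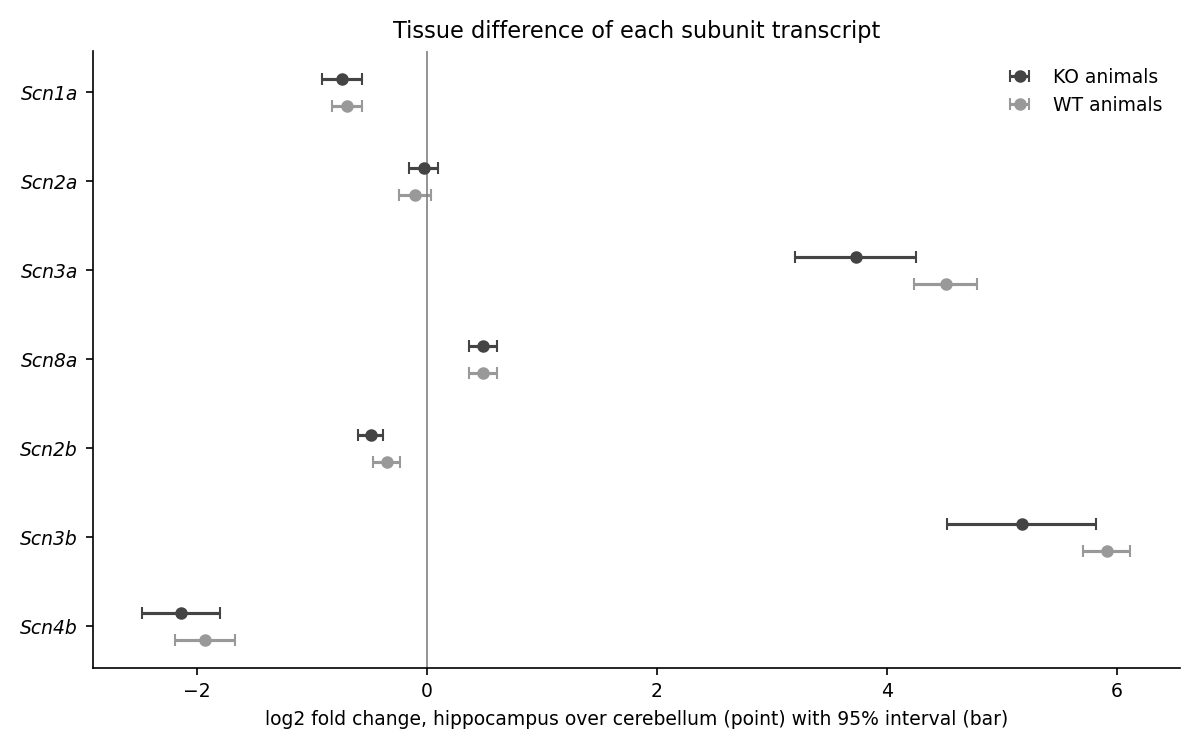
log2 fold change of each subunit, hippocampus over cerebellum, in KO animals (dark) and WT animals (grey), with 95% intervals from edgeR's fit. Scn3a and Scn3b lie at 3.73 to 5.91, Scn4b at -2.14 and -1.93, and the intervals of Scn2a cover 0 in both genotypes.

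Set beside the map of the genes, Scn3a was 13.3-fold higher in the KO hippocampus, and Scn2a, 53.1 kb away, did not pass the test there. Scn2b and Scn4b, 8.32 kb apart, were both lower in the hippocampus of KO animals, by 1.40-fold and by 4.41-fold. These pairs are described only, with no test between genes.

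The genotype comparison in the hippocampus asks whether the loss of Syt14 goes with a change of the channel. None of the 7 members passed the test, where 0 of 17693 genes tested (0.0%) did; no member had an unadjusted p under 0.05, against 4.34% of genes, and none had groups that did not overlap, against 9.81% of genes. DESeq2 called 4 genes (0.0226%) and limma-voom 0, and no member was among them. The log2 fold changes, KO over WT, were -0.04 for Scn1a, -0.03 for Scn2a, -0.02 for Scn3a, -0.03 for Scn8a, -0.09 for Scn2b, 0.07 for Scn3b and 0.01 for Scn4b, with a median of -0.029 against 0.0017 over all genes tested. The 95% intervals bound what was missed. Scn2b lay between -0.18 and 0.0073, Scn2a between -0.12 and 0.062 and Scn8a between -0.12 and 0.054. Scn1a lay between -0.20 and 0.13, Scn3a between -0.17 and 0.13 and Scn3b between -0.076 and 0.21. Scn4b, with its wide spread between animals, was bounded only to between -0.36 and 0.37. Meninges markers summed to 65.1 to 81.2 CPM in the KO and 79.3 to 140 CPM in the WT hippocampus, with 140 in WT library 2; without that library the 7 members again held 0 calls.

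In the cerebellum, again, no member passed the test, where 2 of 17733 genes tested (0.0113%) did. Scn3b, Scn3a and Scn4b were the 3 members with an unadjusted p under 0.05, against 6.77% of genes. Their log2 fold changes were 0.79 for Scn3b (95% interval 0.058 to 1.52), 0.74 for Scn3a (0.050 to 1.43) and 0.21 for Scn4b (0.014 to 0.40), and the edgeR adjusted p was 0.714 for each. The KO and WT libraries of each overlapped, as did those of the other members, where 11.9% of genes had groups that did not. The remaining members had -0.12 for Scn2a (-0.28 to 0.042), -0.05 for Scn8a (-0.19 to 0.093), 0.04 for Scn2b (-0.085 to 0.17) and 0.0011 for Scn1a (-0.12 to 0.12). The median of the 7 was 0.041, against 0.0025 over all genes tested.

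**Figure D4:**
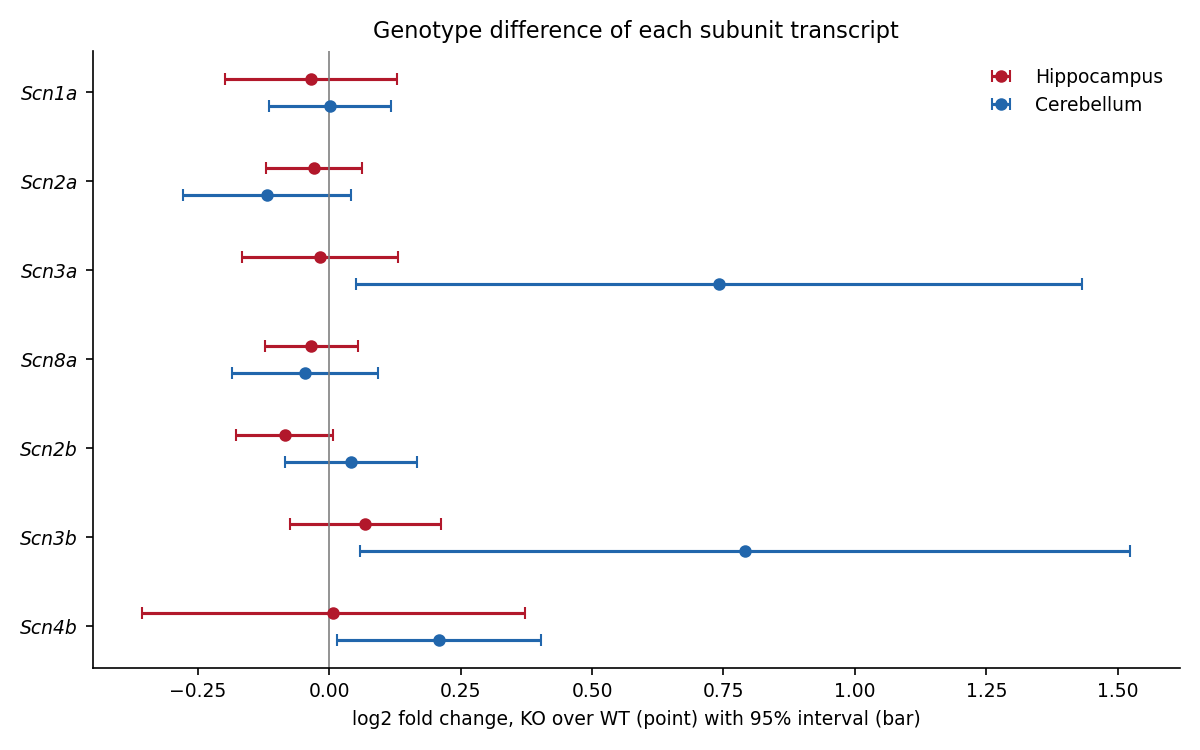
log2 fold change of each subunit, KO over WT, in the hippocampus (red) and the cerebellum (blue), with 95% intervals from edgeR's fit. In the hippocampus all 7 intervals cover 0, and in the cerebellum those of Scn3a, Scn3b and Scn4b lie above it before adjustment for the 17733 genes tested.

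The libraries behind the higher values of Scn3b and Scn3a also differed in markers of tissue next to the cerebellum. The 7 brainstem markers, among them Dbh and Slc6a2 of noradrenergic neurons and Slc5a7 and Chat of cholinergic ones, summed to 19.4, 37.1 and 1.20 CPM in KO libraries 1, 2 and 3 and to 5.62, 1.43 and 2.04 CPM in the WT libraries. All 7 were above every WT library in both KO libraries 1 and 2, and 0 of 7 in KO library 3, where Gata3 and Chat had no count. The marker list was chosen with earlier results of these data known, so this count is a description and not a test. The share of all genes with this order was not counted. Choroid plexus markers, 6 in all, summed to 966, 1769 and 25.8 CPM in the KO and 1941, 2653 and 1046 CPM in the WT libraries, and Folr1 had no count in KO library 3. With the brainstem score (the mean log2 CPM of its markers) in the fit, an alternative added once these values were known, Scn3b had 0.10 (adjusted p = 0.960) and Scn3a 0.27 (adjusted p = 0.918). With the choroid plexus score instead, Scn3b had 1.26 and passed the test (adjusted p = 0.0387), as 0.209% of genes then did, and Scn3a had 1.05 (adjusted p = 0.201). Without KO library 3, Scn3b had 1.15 and also passed (adjusted p = 0.0315), as 0.182% of genes then did, and Scn3a had 1.02 (adjusted p = 0.174). Without KO library 1 they had 0.45 and 0.35, neither called. Brainstem markers were highest in KO libraries 1 and 2, which also had the highest Scn3a and Scn3b. A fit with the brainstem score therefore cannot tell it apart from any other difference of these libraries. The cause was not tested.

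**Figure D5:**
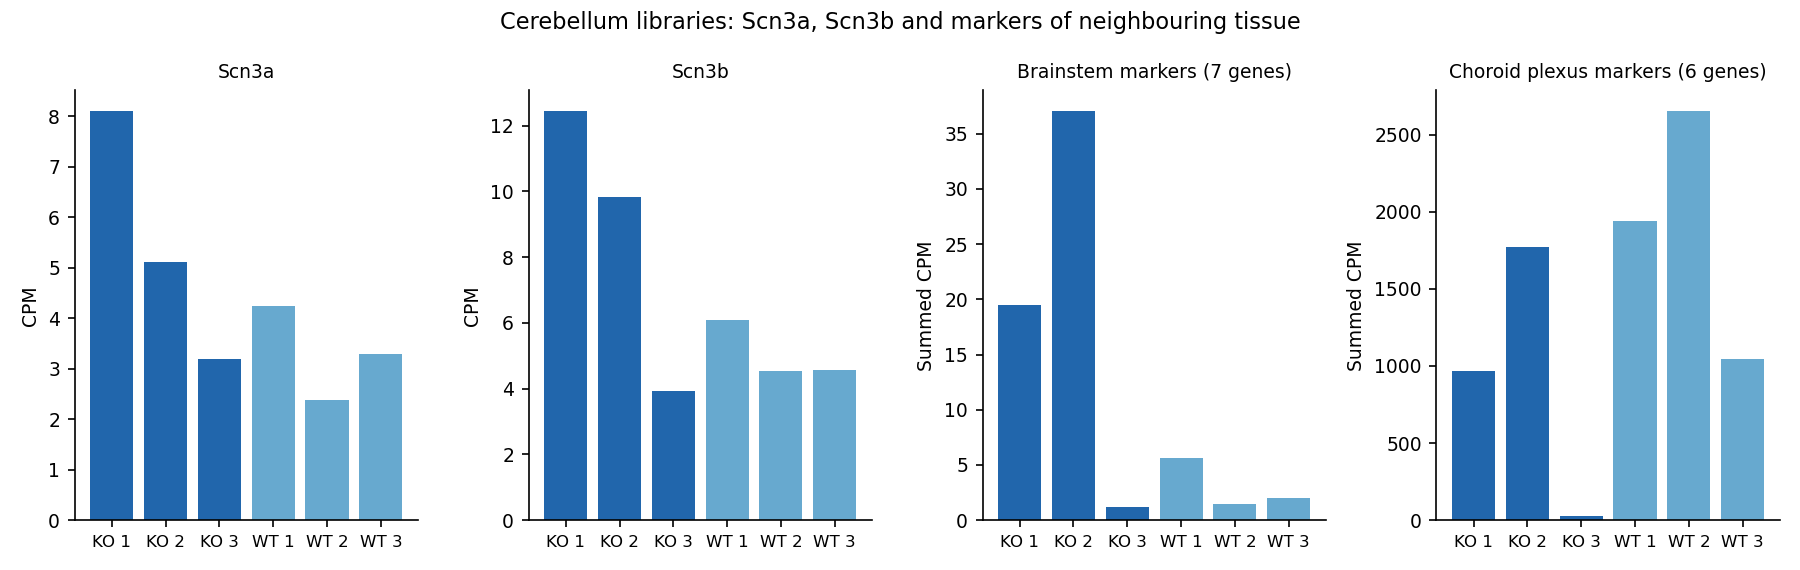
CPM of Scn3a and Scn3b and summed CPM of 7 brainstem and 6 choroid plexus markers in the 3 KO (dark) and 3 WT (light) cerebellum libraries, on linear axes from 0. KO libraries 1 and 2 have the highest Scn3a, Scn3b and brainstem values, and KO library 3 has 25.8 CPM of choroid plexus markers, below the other 5 libraries.

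For Scn4b, whose cerebellar level is far above that of Scn3b, the value was 0.29 (adjusted p = 0.446) with the brainstem score and 0.14 (adjusted p = 0.631) with the choroid plexus score. The lowest WT library, replicate 1, weighed on it: without that library the difference was 0.10 (adjusted p = 0.968). Purkinje cell markers summed to 5995, 6849 and 7449 CPM in KO and 6591, 6168 and 7776 CPM in WT cerebellum libraries, which overlapped. Markers of oligodendrocytes and myelin summed to 6089 to 6711 CPM in KO and 5594 to 5981 CPM in WT, those of microglia to 119 to 129 CPM in KO and 105 to 113 CPM in WT, and those of endothelium to 213 to 220.2 CPM in KO and 207 to 211 CPM in WT. None of these 3 marker sums overlapped between the genotypes, where 11.9% of single genes did not, and the sums of the other marker lists did overlap. Single markers were uneven. KO libraries 1 and 2 were both above every WT library for 6 of 8 oligodendrocyte, 3 of 6 microglia and 1 of 5 endothelium markers. KO library 3 was above every WT library for 4, 4 and 1 of them. The share of all genes with either order was not counted, and the 11.9% above is for groups that do not overlap. These counts therefore have no background here. The part of these cell types in the result was not tested.

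Whether the genotype difference itself differed between the tissues was tested over all 12 libraries, as the hippocampus difference minus the cerebellum one. No member passed, where 2 of 19027 genes (0.0105%) did. Scn3a (-0.77 ± 0.31, unadjusted p = 0.0258, adjusted p = 0.897) and Scn3b (-0.73 ± 0.33, unadjusted p = 0.0458, adjusted p = 0.919) were the 2 members with an unadjusted p under 0.05, against 5.34% of genes. The other 5 had -0.20 for Scn4b, -0.13 for Scn2b, 0.09 for Scn2a, -0.04 for Scn1a and 0.0097 for Scn8a. Without KO library 3 of the cerebellum Scn3b passed (-1.09, adjusted p = 0.0184), as 0.226% of genes then did.

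The partners of the channel were taken as lists, whose counts between the tissues are to be read against the 64.1% of all genes tested in KO and 66.1% in WT animals that were called in either direction (31.6% higher and 32.5% lower in KO, 33.1% higher and 33.0% lower in WT animals). Of the other pore subunits and relatives, Scn4a of muscle and Scn10a and Scn11a of sensory neurons were too low to be tested, and 2 of the 3 tested here were higher in the hippocampus in both genotypes. Scn7a, a relative linked to sodium sensing, had log2 fold changes of 1.78 ± 0.42 in KO (edgeR adjusted p = 0.0047) and 1.92 ± 0.28 in WT animals (adjusted p = 5.33e-05). Nalcn, the sodium leak channel, had 0.25 ± 0.046 in KO and 0.28 ± 0.059 in WT animals. Scn9a did not pass in either genotype (-0.23 and -0.09).

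The fibroblast growth factor homologous factors bind the tail of the alpha subunit and shift its inactivation. Of the 4, 1 was higher and 2 were lower in the hippocampus in both genotypes, a share near that of all genes. Fgf13 averaged 236 CPM in hippocampus and 22.3 CPM in cerebellum of KO animals (3.40 ± 0.11, adjusted p = 7.91e-09) and 232 against 19.1 CPM in WT animals (3.61 ± 0.067, adjusted p = 9.71e-14). Fgf14, altered in an inherited ataxia of humans, was lower by the test (-0.73 ± 0.053 in KO and -0.82 ± 0.086 in WT animals), as was Fgf11 (-0.90 ± 0.090 and -0.59 ± 0.062), and Fgf12 did not pass (0.01 and 0.16). Between genotypes 0 of the 4 were called in either tissue.

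Of 15 scaffold and partner genes of the axon initial segment and node, where the channels are anchored, 7 were higher and 4 lower in the hippocampus in each genotype, where 64.1% of all genes were called in KO and 66.1% in WT animals. The potassium channel subunit Kcnq3 was higher (2.48 ± 0.074 in KO and 2.84 ± 0.069 in WT animals), as were the matrix protein tenascin-R, Tnr (1.34 ± 0.074 and 1.31 ± 0.056), and the adhesion molecule Nrcam (1.23 ± 0.056 and 1.21 ± 0.079). Cntn2, an axonal contactin, was lower (-1.62 ± 0.095 and -1.66 ± 0.069). The median of the 15 was 0.12 in KO and 0.08 in WT animals, against -0.025 and -0.022 over all genes tested. Ank3, the ankyrin-G that binds the alpha subunits, had -0.14 in KO (adjusted p = 0.0302) and -0.05 in WT animals (adjusted p = 0.462).

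Of 14 enzymes and binding proteins that modify the channel, 9 were higher and 1 lower in the hippocampus in each genotype, where 31.6% of all genes were higher and 32.5% lower in KO animals and 33.1% and 33.0% in WT animals. Prkca, a protein kinase C, had 2.06 ± 0.049 in KO and 2.25 ± 0.053 in WT animals, Calm3, a calmodulin gene, 0.88 ± 0.043 and 0.88 ± 0.048, and Nedd4l, a ubiquitin ligase of the channel, 1.03 in KO and 0.88 in WT animals. Between genotypes no gene of these lists was called in either tissue, and none in the test of the difference between tissues.

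Likeness to each member was measured over the 12 libraries as the root-mean-square difference of log2 CPM, each gene centred on its own mean, among 10111 protein-coding genes with a mean of at least 10 CPM. The genes nearest to Scn3b were Mal2 (0.15) and Kcnf1 (0.16), those nearest to Scn3a Fam19a2 (0.22) and Cnih3 (0.22), and those nearest to Scn4b Stard10 (0.15) and Fads6 (0.17). The flatter members had closer neighbours, Frrs1l (0.044) and Nfat5 (0.046) for Scn2a, Pi4ka (0.034) and Prepl (0.041) for Scn8a, Rfx4 (0.046) and Tmbim1 (0.059) for Scn1a, and St3gal2 (0.044) and Tmem129 (0.045) for Scn2b. Mal2 averaged 220 CPM in KO and 226 CPM in WT hippocampus, and 7.01 CPM in KO and 4.30 CPM in WT cerebellum. The points share tissue and library, so the measure is a description of these libraries only.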

How the data were processed

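RNA was sequenced from 12 libraries, 3 per tissue and genotype. Per the labels' protocols, RNA was extracted with Trizol, selected by poly(A) and made into stranded dUTP libraries. Trimmomatic 0.39, STAR 2.7.10 and featureCounts 2.0.3, with mm10 and GRCm38, are named in the submitters' processing notes; annotation release, strand setting and handling of reads with several matches are not stated. The authors deposited raw counts per gene as whole numbers that sum to unequal totals, 1 table per tissue. Of 54446 identifiers, 54409 matched GENCODE M21. No library pair within a group was identical (chi-square per gene 4.11 to 12.7, where resampling gives about 1).

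Tests used edgeR 4.0.16 in R 4.3.3 (filterByExpr with minimum count 10 and total 15, TMM factors, quasi-likelihood, two-sided, Benjamini-Hochberg over all genes, called under 0.05). SE is the size of the log2 fold change over the square root of F, and intervals are 95%. Alternatives were RLE factors, DESeq2 1.42.0, limma-voom 3.58.1, no filter, a replicate or animal block, 1 fit of all libraries, each library left out, and covariates for neighbouring tissue (mean log2 CPM of the markers), the last added after the data were seen. The scripts were tested on simulated data. Coding identity used MAFFT 7.526. Both tissues came from the same animals. Deviations of same-animal libraries correlated at 0.0071 to 0.081 across genes, and those of different animals of a genotype at -0.050 to 0.023. The main tissue fits held no block by animal. Members and lists were chosen with earlier results of these data known. All 7 members are named throughout, in each list up to 3 called genes with the smallest p, and for likeness the 2 nearest genes per member, predicted genes left out; other genes named were chosen after their values were seen. Some genes of the lists and some sequences are not reported here.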

Additional observations from a re-analysis of the deposited data

How the results depend on the processing

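The 6 tissue calls of the members held under every alternative run, in both genotypes, and the block by animal changed no member's call. For genotype, member calls stayed at 0 in the hippocampus under all 13 alternatives. In the cerebellum there was 1 call with the choroid plexus score (Scn3b) and 3 with no filter on low counts (Scn3a 0.74, Scn3b 0.79 and Scn4b 0.20), and 0 to 1 with each replicate left out; for the difference between tissues there were 2 with no filter and 0 to 1 with each replicate left out. The no-filter fit tested 32360 genes in the cerebellum and called 1.29% of them. For the difference between tissues it tested 35179 genes and called 0.782%. Over all genes, calls in the hippocampus were 4 by DESeq2, 77 with no filter, 2 with the replicate block and 0 to 2 with a replicate left out. In the cerebellum they were 37 by DESeq2, 417 with no filter, 36 with the replicate block, 4 in the fit of all 12 libraries, 9 with the brainstem score, 37 with the choroid plexus score and 2 to 33 with a replicate left out. For the difference they were 10 by DESeq2, 275 with no filter and 2 to 44 with a replicate left out. The cause was not tested. No member was called with the replicate block. By the correlation of deviations, each cerebellum library was nearest to the library of its own replicate number in the other genotype. The values there were 0.085 to 0.25 for the same number and -0.22 to 0.073 for unlike numbers. In the hippocampus they were -0.0080 to 0.044 and -0.026 to 0.033. What libraries of 1 replicate number share is not stated in the labels.

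Small genotype differences changed sign. In the hippocampus, Scn2a had 0.022, Scn8a 0.0063 and Scn4b -0.037 with the meninges score, and Scn4b -0.0075 with the replicate block. In the cerebellum, Scn1a had -0.0011 with RLE factors, -0.0012 by DESeq2, -0.0038 with no filter and -0.013 with the choroid plexus score. With each replicate left out, Scn1a ran from -0.090 to 0.055, Scn3a from -0.092 to 0.043 and Scn4b from -0.22 to 0.17 in the hippocampus, and Scn1a from -0.033 to 0.060 in the cerebellum. Scn2a between tissues in KO animals ran from -0.069 to 0.032, and the difference between tissues from -0.10 to 0.052 for Scn1a and from -0.040 to 0.066 for Scn8a. Shares, KO minus WT in percentage points, ran in the hippocampus from -0.77 to 0.92 for Scn1a, -0.18 to 0.41 for Scn2a, -0.33 to 0.41 for Scn3a, -0.61 to 0.25 for Scn8a and -0.72 to 0.71 for Scn4b, and in the cerebellum from -0.011 to 0.50 for Scn8a. With 3 animals a group, and 88 to 338 counts of Scn3a and Scn3b in a cerebellum library, the intervals of those genes there span more than 1 log2 unit. Strand and isoform use were not analysed here.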

Other observations

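Of 4 subunit genes of the sodium pump, which restores the gradient the channels use, 1 was higher and 3 were lower in the hippocampus in each genotype, where 64.1% of all genes tested were called between the tissues in KO and 66.1% in WT animals. Atp1b1, a regulatory subunit, averaged 1645 CPM in hippocampus and 1247 CPM in cerebellum of KO animals (log2 fold change 0.39 ± 0.046, edgeR adjusted p = 4.77e-05) and 1682 against 1180 CPM in WT animals (0.51 ± 0.044, adjusted p = 3.6e-07). Atp1b2, known from glia, was lower, with 348 against 991 CPM in KO (-1.51 ± 0.059, adjusted p = 2.44e-08) and 356 against 1023 CPM in WT animals (-1.52 ± 0.060, adjusted p = 1.35e-10), as was Atp1b3, another regulatory subunit (-0.71 ± 0.067 in KO and -0.70 ± 0.048 in WT animals). Between genotypes 0 of the 4 were called in either tissue.

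Of 10 RNA-binding proteins and other regulators that act on channel transcripts, 4 were higher and 2 lower in the hippocampus of KO animals, and 4 higher and 3 lower in that of WT animals, shares near those of all genes. The splicing factors Nova2 (1.10 ± 0.051 in KO and 1.08 ± 0.048 in WT animals) and Nova1 (-1.02 ± 0.098 and -0.89 ± 0.060) went in opposite directions. Celf4, which binds the messages of channel genes, was higher (0.62 ± 0.060 and 0.68 ± 0.052). Rest, a repressor of neuronal genes known to act on Scn2a, did not pass the test in KO (0.0036) or in WT animals (-0.11). Between genotypes 0 of the 10 were called in either tissue.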
